A study of Mus musculus with 19 samples.

Results

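Chromatin accessibility was compared between untreated differentiating astrocytes at 72 h and at 24 h, using 6 of the 19 ATAC-seq libraries of the series, 3 for each time. ATAC-seq uses a transposase that inserts sequencing adapters into open DNA, so that reads pile up into peaks over accessible stretches. The cells came from the ventricular zone of wild type C57BL/6J mouse brains at embryonic day 14, were grown as neurospheres (NSPs) with EGF and were then plated in medium with 10% foetal bovine serum, which replaced the growth medium. Neither group received TNF. The other libraries were NSPs (0 h), cells kept with 50 ng/ml TNF for 24 h or 72 h, and untreated cells after 1 week, and they serve here to place the change between 24 h and 72 h and enter the shared estimate of the spread behind every call. With the 6 libraries alone, 12659 peaks would be called higher and 15038 lower at 72 h. The labels do not say whether replicates came from separate mice, so the p-values measure the spread between these libraries, which may in part be technical. The cultures were not sorted, and a change in the cells present and a change within a cell type cannot be told apart.

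Neural stem cells leave the cell cycle and enter the astrocyte lineage under signals that act through STAT3, BMP and Notch, together with nuclear factor I (NFI) and SOX transcription factors. Enhancers, which are stretches of open chromatin away from gene starts, often differ more between cell states than gene starts do. Serum contains growth factors and lipids that activate serum response factor, AP-1 (Fos and Jun dimers) and the TEAD partners YAP and TAZ.

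The values were normalised reads in each of 90154 peaks, nearly all 500 bp long. The 24 h libraries held 11758938 to 15083087 reads in peaks and the 72 h libraries 12239620 to 13137103, and the median tested peak held 67.3 reads per library at 24 h and 68.3 at 72 h. Across peaks the rank correlation was 0.940 to 0.948 within 24 h, 0.954 to 0.955 within 72 h and 0.872 to 0.882 between the times, as a description. The column names of all 72 h and 1 week libraries (10, with and without TNF) carry a tag, Luc, that the 9 NSP and 24 h libraries do not carry. Its meaning is not given in the sources used here, and the tag and the time cannot be told apart in the 72 h against 24 h comparison.

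Peaks with at most 3 reads in every tagged library were left out, 1103 in all, of which 830 lay on the main chromosomes and 273 on other scaffolds. Among them, 212 peaks had at least 20 reads in every untagged library, and 168 of these 212 lay within 1 kb of the coordinates of a peak on a patch scaffold. Their median reads were 162, 117 and 149.5 in the 24 h libraries and 1, 1 and 1 in the 72 h libraries. The rule itself fixes these low values at 72 h, so they are a description. Of the left-out peaks, 231 pass the filter on low reads. Just inside the limit, with a highest tagged value of 3 reads, lay 82 peaks on the main chromosomes with a median of 1 and a maximum of 559 reads at 24 h. Just outside, with a highest tagged value of 4 reads, lay 31 peaks with a median of 2 and a maximum of 11.

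Between 24 h and 72 h, 10654 of 88688 tested peaks rose (12.0%) and 12486 fell (14.1%), by limma on log2(value + 1) with Benjamini-Hochberg adjustment, and 65548 did not pass the test. The median log2 change was 0.80 among the peaks that rose and −0.81 among those that fell, against −0.01 over all tested peaks. Of the peaks that rose, 3074 (28.9%) changed by at least 2-fold, and of those that fell, 4024 (32.2%) did. The 3 libraries of one time lay apart from the 3 of the other in 10100 (94.8%) of the peaks that rose and in 11917 (95.4%) of those that fell, while over all tested peaks this held for 20.2% with 72 h above and 21.9% with 72 h below. Peaks that rose made up 46.0% of the calls, and 57.4% when libraries were scaled by total reads in peaks, which moved the median change of all peaks to 0.07.

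**Figure D1:**
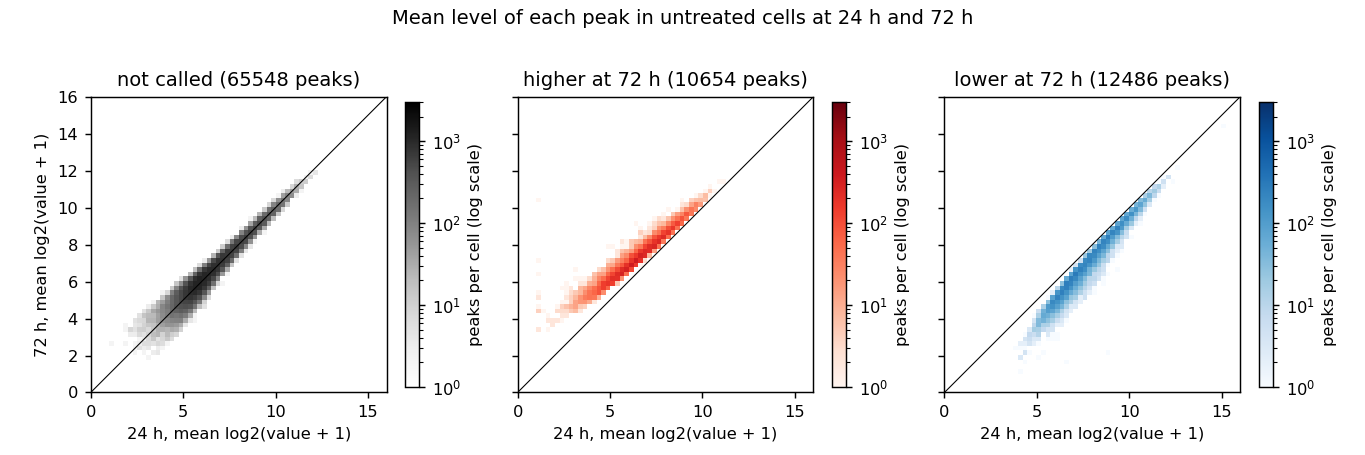
Mean log2(value + 1) of each tested peak in the 24 h libraries (horizontal axis) and the 72 h libraries (vertical axis), shaded by the number of peaks, for peaks not called, higher and lower at 72 h. The 10654 higher and 12486 lower peaks lie in bands on either side of the line of equality, and the few peaks far from it start from low levels at 24 h or end at low levels at 72 h.

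Peaks that fell from 24 h to 72 h tended to be the more open ones in NSPs. The median level of the 12486 peaks that fell went from 208 normalised reads in NSPs through 191 and 104 after 24 h and 72 h to 103 after 1 week. For the 10654 peaks that rose the median went from 67.3 in NSPs through 82.6 and 148 to 162. The 24 h and 72 h values chose these peaks, so the step between those times is fixed by the choice and is a description. The medians at 1 week were close to those at 72 h.

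The same peaks were then read in 3 comparisons that share no library with the untreated 24 h and 72 h groups. From 24 h to 72 h with TNF, 94.1% of the peaks that rose without TNF had a positive change and 48.5% were called higher, and 96.4% of the peaks that fell had a negative change and 51.8% were called lower. Over all tested peaks, 49.5% had a positive change with TNF, 10.3% were called higher and 11.2% lower. The median change with TNF was 0.54 for the peaks that rose and −0.56 for those that fell. From NSPs to 1 week, 88.1% of the peaks that rose had a positive change and 78.5% of those that fell a negative one, against 50.6% positive over all tested peaks. These comparisons also run from untagged to tagged libraries. From NSPs to 24 h with TNF, where both sides are untagged, 67.2% of the peaks that rose had a positive change and 65.7% of those that fell a negative one, against 46.1% positive over all tested peaks. As a description across peaks, which are not independent replicates, Pearson's r of the untreated change with these 3 changes was 0.74, 0.52 and 0.25 in that order.

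In 2999 of the peaks that rose (28.1%) every tagged library lay above every untagged one, and in 3090 of those that fell (24.7%) every tagged library lay below, against 3.96% above and 4.02% below over all tested peaks. The remaining calls had at least 1 library on the other side. The 24 h and 72 h values chose these peaks, and those libraries belong to the untagged and tagged sides. The excess over all tested peaks is therefore in part fixed by the choice and is a description.

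**Figure D2:**
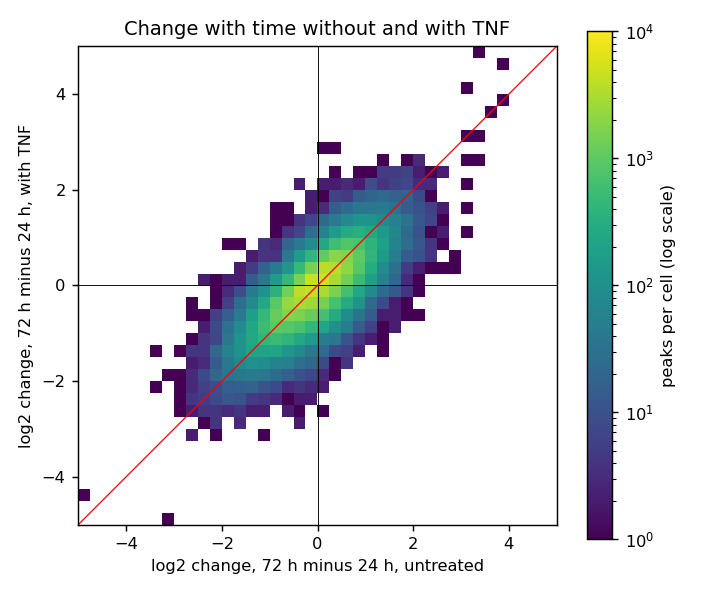
Log2 change from 24 h to 72 h of each tested peak without TNF (horizontal axis) and with TNF (vertical axis), shaded by the number of peaks, with the line of equality in red; 5 of the 88688 peaks lie outside the axes. The cloud runs from lower left to upper right, with Pearson's r of 0.74 across peaks.

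The time change without TNF differed from that with TNF, in a test of the difference itself, at 1 peak of 88688 (0.00113%), by limma with Benjamini-Hochberg adjustment. At an unadjusted p under 0.05, 3482 peaks had a larger and 3186 a smaller change without TNF. edgeR called 3 larger and 0 smaller, and DESeq2 70 larger and 17 smaller, and limma on only the 12 libraries compared 195 larger and 43 smaller. The peak lies 111314 bp from Bmp7, which encodes a bone morphogenetic protein, at chr2:172756448-172756948 (mm10), and it is named because it was the only call. Its values were 123, 119 and 121 at 24 h and 197, 201 and 218 at 72 h without TNF, whereas with TNF the mean was 239 ± 17.4 (SD, n = 3) at 24 h and 138 ± 12.7 at 72 h. The change was thus 0.76 without TNF and −0.78 with TNF on the log2 scale, a difference of 1.54 (adjusted p = 0.0021, limma).

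The balance of rises and falls differed with the position of a peak relative to genes. Peaks at the start of a protein-coding gene (overlapping the 250 bp before to 50 bp after an annotated start) mostly fell where they changed: of 9380 such peaks, 604 rose (6.44%) and 2239 fell (23.9%), with a median log2 change of −0.12. Elsewhere, which includes starts of genes without an annotated window, 9751 of 76215 rose (12.8%) and 9774 fell (12.8%). Within 10 kb of a gene but outside it, 15.4% rose and 10.6% fell, with a median of 0.10. Over 100 kb from any gene, 9.17% rose and 19.4% fell, with a median of −0.16. Inside genes the shares were 12.7% and 12.2%.

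The excess of falls at gene starts moved with the scaling and with single libraries. With total-read scaling 1062 rose and 1845 fell, and with cyclic loess 1204 rose and 1952 fell. Without 72 h replicate 2 the number that rose dropped to 393, and without 24 h replicate 2 the number that fell dropped to 1452. With TNF, 983 gene-start peaks rose and 870 fell from 24 h to 72 h. The mean level at gene starts relative to other peaks, computed per library, was 2.10, 2.19 and 1.96 log2 units at 24 h and 1.91, 1.97 and 2.01 at 72 h. These groups overlapped, and the difference of −0.12 did not pass an exact two-sided permutation test (p = 0.3, where 3 against 3 libraries cannot go below 0.1). With TNF the same difference was 0.05 (exact permutation p = 0.5). The median gene-start peak held 499 normalised reads in NSPs and again after 1 week, and 402 and 371 in between, at 24 h and 72 h.

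**Figure D3:**
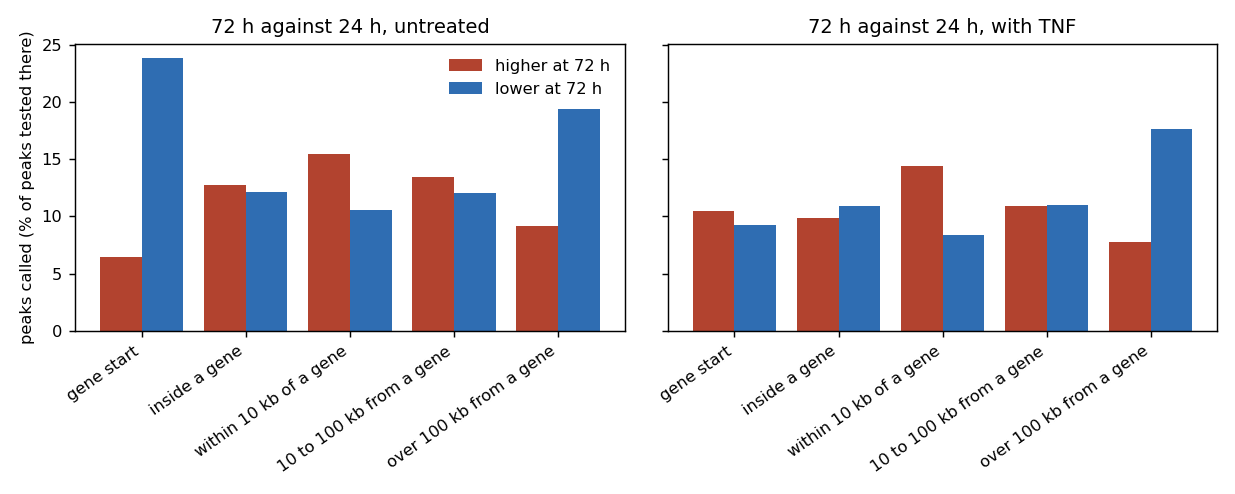
Share of the tested peaks called higher (red) and lower (blue) at 72 h, in percent, by position relative to protein-coding genes, without TNF on the left and with TNF on the right. Without TNF the bar for falls at gene starts reaches 23.9%, and with TNF it is 9.28%; the bars over 100 kb from a gene show more falls than rises in both.

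Chromosomes differed in their median change. It was 0.12 on chromosomes 11 and 19 and −0.17 on X, where 122 of 2081 peaks rose and 420 fell. With TNF the medians were 0.11, 0.12 and −0.10. Peaks on X held 1.74% to 1.77% of the reads in peaks in the 24 h libraries and 1.57% to 1.60% in the 72 h libraries. For Y the shares were 0.0113% to 0.0122% and 0.0130% to 0.0149%, and 4 of 22 Y peaks rose and 0 fell. No test was made of these medians and shares, and the part of embryo sex in them was not tested.

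**Figure D4:**
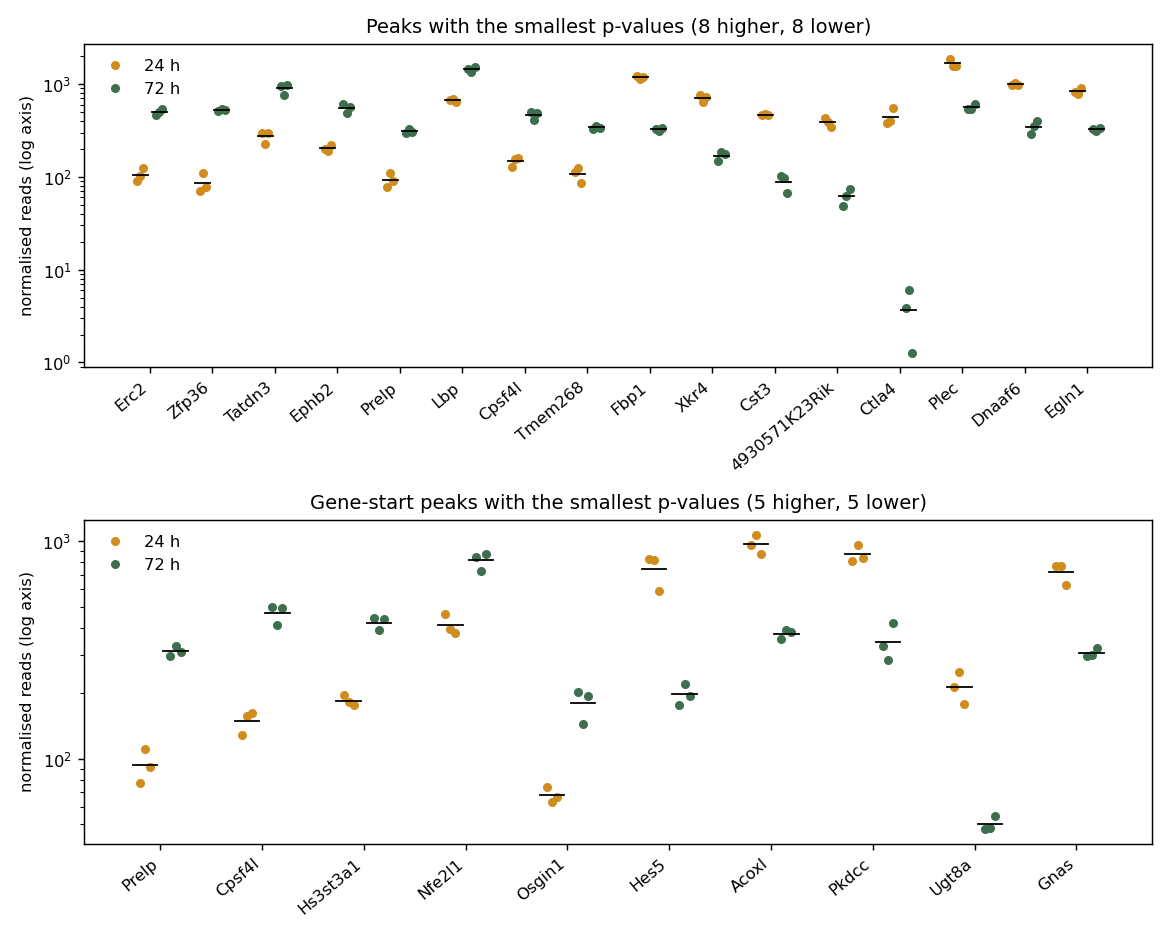
Normalised reads (log axis) of each library at 24 h (orange) and 72 h (green), with the mean as a bar, for the peaks with the smallest p-values (top) and for the gene-start peaks with the smallest p-values (bottom), under the nearest gene or the gene that starts there. The 24 h and 72 h libraries do not overlap at any of them, which the rule that chose them required; at the Ctla4 peak the 72 h libraries lie between 1.27 and 5.98.

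Among the peaks that rose with the smallest p-values, one inside Erc2, which encodes a presynaptic scaffold protein, at chr14:28377327-28377827, had 89.9, 103 and 124.4 normalised reads at 24 h and 467, 504 and 540 at 72 h. Every 72 h library lay more than 3-fold above every 24 h library. The log2 change was 2.25 ± 0.15 (SE; adjusted p = 3e-11, limma). A peak 2080 bp from Zfp36, which encodes a protein that destabilises cytokine mRNAs, at chr7:28381058-28381558, had 70.6, 109 and 77.6 at 24 h and 512, 536 and 523 at 72 h. It was 492 on average at 72 h with TNF and 182 ± 18.3 (SD, n = 4) at 1 week, so its level at 1 week lay between those at 24 h and 72 h. A peak inside Tatdn3 rose from a mean of 273 ± 41.2 to 898 ± 112 (SD, n = 3), having been at 31.3 in NSPs, and stood at 1139 at 1 week.

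At 3 other peaks that rose, the mean at 1 week was higher again. A peak inside Ephb2, an ephrin receptor, went from 204 ± 15.6 at 24 h to 556 ± 60.3 at 72 h and 1094 at 1 week. A peak 10523 bp from Lbp, which encodes the lipopolysaccharide-binding protein, went from 668 ± 29.3 to 1441 ± 92.8 and to 1996 at 1 week. A peak inside Tmem268 went from 108 ± 20.0 to 341 ± 14.7 and to 589. The 2 remaining peaks of this set, at the starts of Prelp and Cpsf4l, are given with the gene starts.

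The largest rises on the log2 scale started from few reads. A peak 1646 bp from Rab11fip2, at chr19:59945052-59945552, had 10.2, 7.38 and 7.39 normalised reads at 24 h and 93.9, 100 and 95.6 at 72 h (log2 change 3.40 ± 0.48, adjusted p = 8.4e-06, limma), and 156 at 1 week. A peak 10837 bp from Fra10ac1 had 33.0, 25.1 and 23.4 at 24 h and 295, 242 and 214 at 72 h. Peaks inside Adamts17, a secreted metalloprotease gene, and Dcun1d4 rose from means of 5.53 and 5.63 to 49.9 and 47.0 and were at 117 and 113 at 1 week. A peak inside Gtf2f2, a subunit of a general transcription factor, rose from 10.8 ± 8.07 to 64.6 ± 9.77 without TNF, while with TNF the means were 17.3 and 23.0 (log2 change 0.47, adjusted p = 0.54, limma), and the difference between the changes did not pass the test. Larger fitted rises than that near Rab11fip2 were seen only on scaffolds outside the main chromosomes, which hold 120 tested peaks and 11 of the 16 that rose by at least 3 on the log2 scale.

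Among the peaks that fell with the smallest p-values, one inside Fbp1, which encodes the gluconeogenic enzyme fructose bisphosphatase, at chr13:62866720-62867220, had 1238, 1146 and 1202 at 24 h and 328, 310 and 339 at 72 h. The log2 change was −1.87 ± 0.12 (SE; adjusted p = 3.7e-11, limma), and the mean was 668 in NSPs and 238 at 1 week. A peak 9438 bp from Cst3, the gene of the protease inhibitor cystatin C, at chr2:148884700-148885200, had 462, 474 and 468 at 24 h and 102, 96.9 and 67.6 at 72 h, and its mean was 714 in NSPs and 33.0 at 1 week. A peak inside Plec, which encodes the cytoskeletal linker plectin, fell from 1672 ± 181 to 561 ± 41.4, with means of 316 in NSPs and 343 after 1 week, so that among untreated cells it was highest at 24 h.

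Other peaks of this set did not keep falling. A peak inside Xkr4 fell from 703 ± 62.1 to 170 ± 18.6 and was at 386 at 1 week. A peak inside Egln1, which encodes a prolyl hydroxylase that marks hypoxia-inducible factors for degradation, fell from 835 ± 72.7 to 325 ± 10.6 and was at 625 at 1 week. A peak 9539 bp from Dnaaf6, a gene of dynein arm assembly, fell from 993 ± 33.2 to 348 ± 58.0 and was at 466 at 1 week. A peak 33107 bp from 4930571K23Rik fell from 386 ± 41.0 to 61.7 ± 12.5.

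The lowest 72 h values among the named peaks need the tag beside them. A peak 57768 bp from Ctla4 had 380, 403 and 548 at 24 h and 3.86, 5.98 and 1.27 at 72 h, and a peak inside Icos had 104, 67.9 and 122 at 24 h and 5.15, 1.20 and 1.27 at 72 h. Both are genes of T-cell costimulation, both peaks lie within 1 Mb of left-out peaks, and in all 10 tagged libraries they held at most 7 and 14 reads, against at least 143 and 7 in the untagged ones. A peak at the start of LOC108167368 fell from 36.7 ± 11.6 to 2.91 ± 1.42 but was at 18.8 at 1 week, which is also tagged. Peaks inside Mgat4c, a glycosyltransferase gene, and Tank, which encodes a TRAF-binding adaptor, fell from 74.8 ± 14.1 to 11.0 ± 10.2 and from 87.1 ± 20.0 to 12.2 ± 8.69, and at 1 week they were at 9.74 and 64.9. Among the other peaks with the smallest p-values over all peaks or over gene starts, some also lie within 1 Mb of a left-out peak. These are the peaks of Zfp36, Tatdn3, Prelp, Hs3st3a1, Osgin1, Hes5 and Gnas, and each tagged library held at least 41 reads there. Peaks of the gene lists named below also include some, such as those of the Slc1a3 start and the Fabp7 locus.

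Gene starts with the smallest p-values gave a compact picture, since the gene is known there. Hes5, a transcriptional repressor downstream of Notch that holds cells in the progenitor state, had 827, 816 and 590 normalised reads at its start at 24 h and 176, 221 and 195 at 72 h (log2 change −1.90 ± 0.16, adjusted p = 3e-09, limma). Its level was 1976 in NSPs and 93.0 at 1 week, and all 4 tested peaks of its locus fell between 24 h and 72 h. Ugt8a, which encodes the enzyme that makes galactosylceramide of myelin, had 214, 249 and 179 at 24 h and 47.6, 47.8 and 54.8 at 72 h, a log2 change of −2.06 ± 0.20. Starts of Acoxl (965 ± 98.1 to 376 ± 17.4), of the secreted kinase gene Pkdcc (867 ± 78.9 to 344 ± 68.7) and of Gnas, which encodes a stimulatory G-protein subunit (719 ± 81.0 to 306 ± 14.4), fell as well. In these 3 the mean was higher in NSPs than at 24 h.

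On the rising side, Prelp, which encodes a leucine-rich proteoglycan of the extracellular matrix, had 77.4, 111 and 91.1 at its start at 24 h and 297, 329 and 309 at 72 h (log2 change 1.75 ± 0.15, adjusted p = 4.4e-09, limma). Osgin1, an oxidative-stress-induced gene, had 74.0, 63.4 and 66.5 at 24 h and 202, 145 and 194 at 72 h, and stood at 311 at 1 week. Cpsf4l rose from 149 ± 17.6 to 465 ± 48.5, Hs3st3a1, a heparan sulfate sulfotransferase gene, from 185 ± 10.0 to 422 ± 28.9, and Nfe2l1, the gene of a stress-responsive transcription factor, from 411 ± 45.0 to 816 ± 78.9. Hs3st3a1 was at 242 at 1 week, and Nfe2l1 was at 1030.

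The 250 bases before these starts, from RefSeq on GRCm38.p6, are printed for 5 genes. Prelp and Osgin1 rose, Hes5 and Ugt8a fell, and Gja1 is a gene of the study that rose. Capitals mark matches to the AP-1 letters TGANTCA (Osgin1, Gja1), the NFI half-site letters TTGGCA (Prelp) and the SOX letters ACAATG (Hes5), searched on both strands, and each sequence is given 5′ to 3′ on the strand of its gene.
Prelp, chr1:133921402-133921651, minus strand: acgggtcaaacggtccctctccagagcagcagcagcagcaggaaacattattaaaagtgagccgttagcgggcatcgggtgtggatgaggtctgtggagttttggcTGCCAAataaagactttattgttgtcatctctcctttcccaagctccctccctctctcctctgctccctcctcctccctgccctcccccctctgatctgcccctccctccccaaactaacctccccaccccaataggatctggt
Osgin1, chr8:119436897-119437146, plus strand: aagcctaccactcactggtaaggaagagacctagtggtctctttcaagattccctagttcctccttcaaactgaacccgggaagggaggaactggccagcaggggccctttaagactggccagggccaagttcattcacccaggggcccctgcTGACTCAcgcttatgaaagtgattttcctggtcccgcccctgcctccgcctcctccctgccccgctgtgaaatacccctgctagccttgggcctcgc
Gja1, chr10:56377050-56377299, plus strand: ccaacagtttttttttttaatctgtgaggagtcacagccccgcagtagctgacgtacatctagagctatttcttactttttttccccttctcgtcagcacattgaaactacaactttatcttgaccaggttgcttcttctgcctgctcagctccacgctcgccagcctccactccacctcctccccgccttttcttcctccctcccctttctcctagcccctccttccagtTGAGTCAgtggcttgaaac
Hes5, chr4:154960673-154960922, plus strand: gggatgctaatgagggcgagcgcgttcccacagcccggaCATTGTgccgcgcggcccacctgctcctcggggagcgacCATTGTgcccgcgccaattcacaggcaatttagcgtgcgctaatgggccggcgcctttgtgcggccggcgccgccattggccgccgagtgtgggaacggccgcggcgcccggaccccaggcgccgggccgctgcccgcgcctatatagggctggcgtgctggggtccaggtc
Ugt8a, chr3:125938653-125938902, minus strand: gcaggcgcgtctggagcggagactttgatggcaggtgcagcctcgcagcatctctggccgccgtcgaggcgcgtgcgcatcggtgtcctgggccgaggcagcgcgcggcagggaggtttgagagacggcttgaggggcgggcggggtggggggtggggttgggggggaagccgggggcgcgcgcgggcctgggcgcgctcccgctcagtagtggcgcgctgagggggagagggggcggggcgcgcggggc

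The printed stretches of Prelp, Osgin1 and Gja1 hold 55.6%, 58.4% and 50.0% G and C, and those of Hes5 and Ugt8a 71.6% and 76.8%. The direction did not follow base composition at every named start: Acoxl, which fell, has 52.0%, while Cpsf4l, Hs3st3a1 and Nfe2l1, which rose, have 59.6%, 64.0% and 64.8%, and Pkdcc and Gnas, which fell, have 83.2% and 80.0%. Over all gene-start peaks, the median G and C content of the 300-base window was 56.0% where the peak rose (604) and 67.3% where it fell (2239), against 62.0% over the 9378 windows matched to tested gene-start peaks and 56.3% over all 21262 windows. Base composition therefore moved with the direction of change, and its part in the result was not tested. The AP-1 letters were in 8.44% of the windows that rose, 3.44% of those that fell, 4.54% of those tested and 6.99% of all windows. The RUNX letters TGTGGT were in 15.2%, 8.89%, 11.3% and 14.97%, and the TEAD letters GGAATG in 14.1%, 9.83%, 11.6% and 13.6%, in the same order. For both, the share among windows that rose was thus close to that of all windows, and windows that fell held fewer. The E-box CAGCTG was in 15.1% and 15.5% of windows that rose and fell. A match is a description of letters only.

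Some genes had several peaks that passed the test in 1 direction. Of 17285 protein-coding genes with a tested peak inside them or within 10 kb, 5537 had at least 1 peak that rose, 6842 at least 1 that fell and 2031 both. At 106 genes 5 or more peaks rose and 0 fell, and at 81 genes the reverse held. Shroom3, which encodes an actin-binding protein that shapes epithelial cells, led with 18 of 38 peaks rising and 0 falling. Rora, a nuclear receptor gene, had 17 of 46 rising and 1 falling, Msi2, an RNA-binding protein gene of progenitors, 16 of 63 and 2, Rad51b, a recombination gene, 15 of 34 and 1, and Macf1, a cytoskeletal crosslinker gene, 15 of 38 and 3. On the falling side, Tenm2, which encodes a synaptic adhesion protein, had 17 of 28 peaks falling and 0 rising, with a median log2 change of −0.74. Rbfox1, a neuronal splicing factor gene, had 14 of 36 falling and 0 rising, Ptprn2, of secretory vesicles, 15 of 51 and 2, Pde4d, a cAMP phosphodiesterase gene, 13 of 46 and 2, and Celf4, a neuronal RNA-binding protein gene, 12 of 27 and 1. These are long genes with many peaks each, spanning 277 to 1528 kb.

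Gene lists were described by their locus peaks, against 12.0% rising and 14.1% falling over all tested peaks and a median change of −0.01. Astrocyte genes had 22 of 105 peaks rising and 11 falling, with a median of 0.14. Clu, an apolipoprotein gene of astrocytes, had 3 of 6 rising and 0 falling, and 1 of them, at chr14:65968276-65968776, went from 230, 271 and 299 to 470, 429 and 497. A peak of the Atp1b2 locus, a sodium pump subunit gene, which lies inside the neighbouring Shbg, rose from 160 ± 40.5 to 318 ± 19.7. Slc1a2, the glutamate transporter gene GLT1, had 3 of 13 rising and 0 falling. Others of the list fell: Aldh1l1, a folate enzyme gene used to mark astrocytes, had 4 of 9 falling and 0 rising, with its most significant peak, 9151 bp away, at 1972, 1922 and 1857 at 24 h and 1056, 981 and 1044 at 72 h. Sparcl1, which encodes a secreted synaptogenic protein, fell at a peak from 1394 ± 135 to 792 ± 95.6.

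At the gene starts of the genes that the study itself names for untreated cells, 5 passed the test and 11 did not, a share near the 30.3% of all tested gene-start peaks that passed in either direction. This list was chosen on these cultures and is not independent evidence of its direction. Gja1, which encodes the gap junction protein connexin 43, rose from 120, 133 and 91.1 to 237, 245 and 172 (log2 change 0.92, adjusted p = 0.0012, limma). Gpld1, a phospholipase gene, rose from 208 ± 33.1 to 370 ± 8.73, and Slc1a3, the glutamate transporter gene GLAST, from 189 ± 15.5 to 270 ± 42.9. A peak 4699 bp from Slc1a3 fell from 723 ± 24.8 to 462 ± 26.9, and its locus held 3 rising and 3 falling peaks of 8. Ccnb1, a mitotic cyclin gene, fell from 559 ± 33.8 to 422 ± 25.3 and was at 672 at 1 week. Foxp1, a forkhead transcription factor gene, fell from 285 ± 51.7 to 191 ± 28.1 and was at 247 at 1 week. With TNF the log2 changes of −0.07 at Ccnb1 and 0.07 at Foxp1 did not pass the test (adjusted p = 0.66 and 0.79, limma). The calls at the starts of Slc1a3 and Foxp1 were lost without 24 h replicate 1 or 72 h replicate 2 and without 24 h replicate 2 or 72 h replicate 1.

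The start of Gfap, the intermediate filament gene of astrocytes, had 511, 500 and 456 at 24 h and 542, 493 and 552 at 72 h. These values overlap, and the log2 change of 0.11 ± 0.22 did not pass the test (adjusted p = 0.74, limma). Its level was 108 in NSPs and 258 at 1 week, so the 24 h and 72 h values both lay above the NSP mean. Mki67, a proliferation marker, had 358 ± 26.4 and 303 ± 31.6 (adjusted p = 0.15, limma), and Cd44, a hyaluronan receptor gene, 328 ± 19.9 and 369 ± 44.4. The potassium channel gene Kcnj10 had 986 ± 78.1 and 832 ± 56.9 (adjusted p = 0.086, limma). Esr1, Nfia, Rxra, Rarg, Cebpb, Smad3 and Rbpj also did not pass, with log2 changes between −0.39 and 0.32. Egr1, Clcf1, Slc14a1, Slc1a2 and Myc had no tested peak at a start. Only 17 of the 21 genes had an annotated start window, so most genes lacking a start peak could not be scored there.

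Neural stem cell genes had 16 of 101 peaks rising and 21 falling, with a median of −0.13. Beside Hes5, the falling peaks included 1 inside Egfr, the receptor for the growth factor of the neurosphere medium, from 160, 162 and 179 to 65.6, 40.7 and 52.3, and 1 of the locus of Fabp7, a radial glia fatty acid carrier gene, which lies inside the neighbouring Smpdl3a, from 506 ± 25.5 to 223 ± 33.5. The forebrain transcription factor gene Lhx2 had 2 of 4 falling and 0 rising. Other members rose: a peak inside Msi1, a progenitor RNA-binding protein gene, went from 47.8, 47.2 and 59.1 to 180, 219 and 213, and Nes, the gene of the intermediate filament nestin, had 3 of 8 rising and 1 falling. Notch1, the receptor upstream of Hes5, had 4 of 17 rising and 3 falling.

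Gliogenic factors had 32 of 227 peaks rising (14.1%) and 27 falling (11.9%), shares near those of all tested peaks, and a median of 0.05. Nfia had 11 of 59 rising and 4 falling, and a peak inside it at chr4:97665091-97665591 went from 37.6, 54.6 and 69.0 to 205, 147 and 201. Zbtb20, a repressor gene of the astrocyte lineage, had 8 of 52 rising and 0 falling. Nfib had 3 of 23 rising and 8 falling, and Sox8 0 of 8 rising and 3 falling. Id3, a BMP target that inhibits proneural factors, fell at a peak 2475 bp away from 650 ± 135 to 285 ± 23.0. Rfx4 held peaks of both kinds, 1 rising from 98.2 ± 7.61 to 195 ± 18.7 and 1 falling from 407 ± 5.94 to 174 ± 25.3.

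Reactive astrocyte genes had 14 of 60 peaks rising and 4 falling, with a median of 0.20. Sbno2, a STAT3-induced corepressor gene, had 5 of 14 rising and 1 falling, with a peak 1650 bp away at 66.0, 60.5 and 97.3 at 24 h and 170, 157 and 187 at 72 h. A peak of the Tgm1 locus, nearest to Rabggta, rose from 19.6 ± 7.34 to 61.2 ± 6.57 and one of the Cxcl10 locus, inside Art3, from 38.2 ± 2.51 to 77.9 ± 26.6. Lcn2 and Osmr, the genes of lipocalin and the oncostatin M receptor, each had 2 rising peaks and 0 falling, while Cp, the ceruloplasmin gene, had 0 rising and 2 falling.

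Contractile and YAP pathway genes had 20 peaks rising (16.1%) and 7 falling (5.65%), with a median of 0.15. A peak of the locus of Cnn1, the calponin gene, which lies inside Elof1, rose from 80.8, 98.8 and 94.8 to 214, 189 and 208, and peaks inside Vcl (vinculin) and Wwtr1 (TAZ) rose from 204 ± 18.4 to 369 ± 28.5 and from 92.9 ± 16.6 to 208 ± 15.3. Tead1 had 5 of 27 rising and 1 falling, the latter from 604 ± 44.5 to 245 ± 12.0. Ccn2, a classical YAP target, had 1 rising and 2 falling of 4. None of the 11 gene-start peaks of this list passed the test, where 30.3% of all tested gene-start peaks did.

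AP-1 and early response genes had 9 of 57 rising (15.8%) and 5 falling (8.77%), and the median of 0.03 turned negative without 24 h replicate 3. A peak of the Fosl1 locus, nearest to Fibp, rose from 124.1, 115 and 132 to 284, 215 and 296, and a peak 1865 bp from Myc from 173 ± 10.0 to 269 ± 27.7, while a peak of the Jund locus, inside Iqcn, fell from 126 ± 25.5 to 68.4 ± 9.28. TGF-beta and BMP genes had 19 of 120 rising (15.8%) and 15 falling (12.5%), with a median of 0.07. Inside Smad3, a transducer of TGF-beta, a peak rose from 26.2, 16.2 and 11.1 to 100, 67.0 and 61.2, and inside Bmp6 a peak rose from 55.8 ± 15.9 to 173 ± 10.2. Bmpr1a, a BMP receptor gene, fell at a peak from 663 ± 95.4 to 351 ± 34.0. Tgfbr2 had 4 of 10 rising and 1 falling.

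Lipid transport genes had 12 of 102 rising (11.8%), a share near that of all tested peaks, and 8 falling (7.84%), with a median of 0.08. Osbpl3, an oxysterol-binding protein gene, had 6 of 17 rising and 1 falling, and Scarb1, the HDL receptor gene, rose 130 bp from the gene from 179 ± 18.7 to 302 ± 20.8, a call lost without 24 h replicate 3. At gene starts 0 of 8 rose and 3 fell, where 6.44% and 23.9% of all tested gene-start peaks did. Glycogen and glucose genes had 10 of 78 rising (12.8%) and 16 falling (20.5%), and the median of −0.04 turned positive with total-read scaling and cyclic loess. Slc2a1, the glucose transporter gene GLUT1, rose at a peak from 411 ± 43.5 to 744 ± 85.5, while Ldhb, a lactate dehydrogenase gene, fell at a peak from 266 ± 16.6 to 149 ± 23.7. Cilium genes had 6 of 86 rising (6.98%) and 13 falling (15.1%), and the median of −0.06 turned positive with total-read scaling. Arl13b, a ciliary GTPase gene, had 3 of 3 falling, whereas Rfx3 had 5 of 11 rising and 0 falling.

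Proliferation genes had 7 of 52 rising (13.5%) and 8 falling (15.4%), shares near those of all tested peaks. Their median of 0.02 turned negative in 3 of the fits that left out a library. Aurkb had 3 of 8 rising and 0 falling, with a peak 266 bp away going from 115 ± 14.8 to 181 ± 24.5, and Top2a rose at a peak from 356 ± 26.1 to 493 ± 60.3. The call at the Aurkb peak was lost when either 24 h replicate 2 or 72 h replicate 2 was left out, and that at the Top2a peak in 4 of the 6 fits that left out a library. Ccna2, another mitotic cyclin gene, fell from 1814 ± 123 to 1312 ± 125 and was at 2029 at 1 week. With TNF its log2 change of −0.16 did not pass the test (adjusted p = 0.31, limma). Factors that the study placed in its 24 h regulatory network had 20 of 126 rising (15.9%) and 8 falling (6.35%). Those of its 72 h network had 15 of 84 rising (17.9%) and 5 falling (5.95%). Over all tested peaks the shares were 12.0% and 14.1%. Nfia (11 of 59 rising, 4 falling) and Foxp1 (5 of 32 rising, 3 falling) held most peaks and calls of the 24 h list. Foxp1 and Esr1 are in both lists, so the counts are not separate. Rarg, a retinoic acid receptor gene of the 72 h list, rose at a peak from 301, 269 and 244 to 562, 470 and 585. All 21 genes that the study named for untreated cells, Nfia and Foxp1 among them, had 39 of 213 rising (18.3%) and 15 falling (7.04%).

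**Figure D5:**
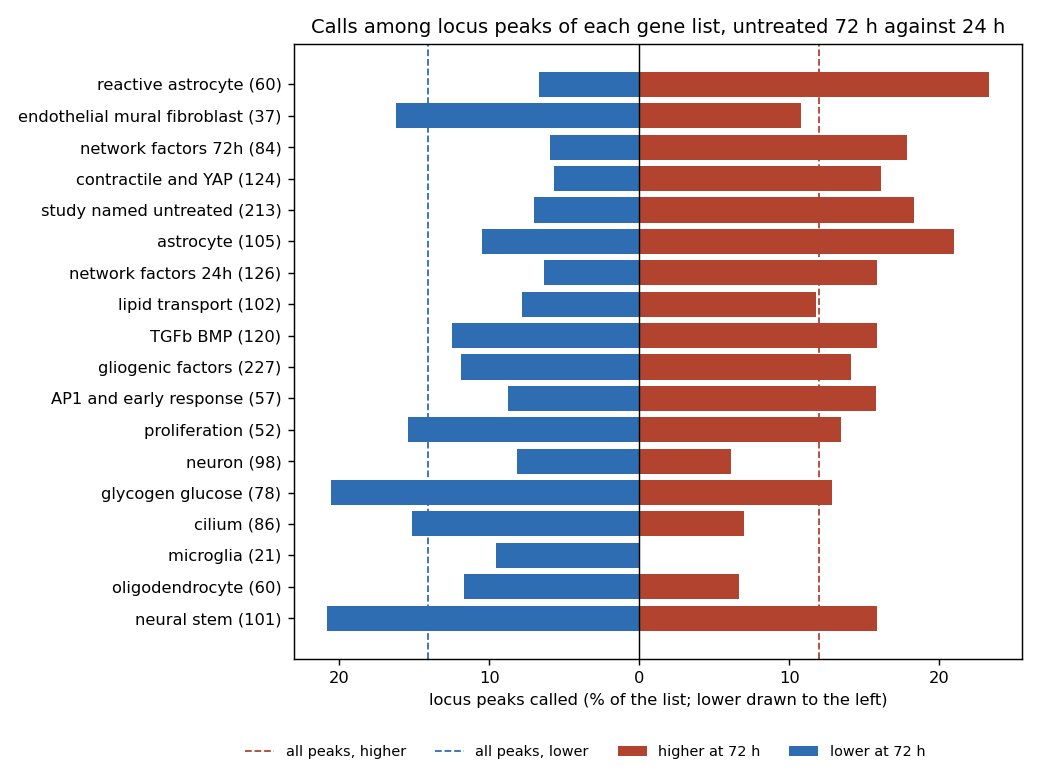
Locus peaks called higher (red, to the right) and lower (blue, to the left) at 72 h, as a percentage of the tested locus peaks of each gene list (their number in brackets), ordered by median change, with dashed lines at the shares over all tested peaks. Reactive astrocyte genes reach 23.3% on the rising side and astrocyte genes 21.0%, against 12.0% over all peaks, and neural stem and glycogen genes reach 20.8% and 20.5% on the falling side, against 14.1%.

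Accessible peaks lay at or near some marker genes of other cell types. An open site does not show that the gene is expressed or that the cell type is present. The paper reports that neurons and oligodendrocytes were not detected in its differentiation cultures. A gene without an annotated start window could not be scored at its start. Of 16 neuronal genes, 14 had such a window and 9 of these a peak there. The start peaks summed to 2505 to 2695 normalised reads per library at 24 h and 2083 to 2318 at 72 h. The locus peaks of the list rose in 6 (6.12%) and fell in 8 (8.16%) of 98, both below the 12.0% and 14.1% of all tested peaks. A peak inside Syt1, a synaptic vesicle calcium sensor gene, fell from 53.5 ± 11.3 to 7.60 ± 3.52, and a peak near Dlx2, an interneuron transcription factor gene, rose from 34.8 ± 7.76 to 131 ± 19.9. Oligodendrocyte genes had 4 of 60 rising (6.67%) and 7 falling (11.7%), also below the shares of all tested peaks. Their median of −0.07 turned positive with total-read scaling. Of the 12 oligodendrocyte genes, 7 had an annotated start window and 3 of these a peak there. Of these peaks 0 rose and 1 fell. Those starts summed to 1063 to 1102 at 24 h and 742 to 906 at 72 h, while their median level went from 220 to 249. Olig2, the transcription factor gene of that lineage, had 3 of 4 peaks falling, 1 of them 185 bp away from 685, 639 and 671 to 342, 384 and 398, and Olig1 had 2 of 5 falling. Others of the list had rising peaks: Cspg4, a proteoglycan gene of progenitors, had 2 rising and 1 falling of 9, and the transcription factor genes Myrf and Sox10 had 1 rising and 0 falling of 5 each, the Sox10 call being lost in 3 of the 6 fits that left out a library. More peaks rose than fell at 3 genes of the list and the reverse held at 3.

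Of 10 microglial genes, 6 had an annotated start window and 1 of these a peak there. That peak held 45.7 to 64.9 normalised reads at 24 h and 53.8 to 67.6 at 72 h. Of 21 locus peaks, 0 rose and 2 fell (9.52%), against 12.0% rising and 14.1% falling over all tested peaks. These 2 lie in Ptprc and in the Tmem119 locus. The call in the Tmem119 locus was lost with cyclic loess and in 4 of the 6 fits that left out a library. Endothelial, mural and fibroblast genes had 4 of 37 rising (10.8%) and 6 falling (16.2%), shares near those of all tested peaks. Of these 12 genes, 6 had an annotated start window and 2 of these a peak there. The start peaks summed to 801 to 963 at 24 h and 735 to 808 at 72 h. The part of these cell types in the changes above was not tested. The astrocyte list had an annotated start window for 14 of 20 genes and a peak there for 12. These summed to 5669 to 6717 at 24 h and 6595 to 6672 at 72 h, which overlap.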

How the data were processed

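The study's authors trimmed reads (Trim Galore), aligned them (Bowtie2, SAMtools), called peaks (MACS2) and deposited a table of signal, the normalised reads of each peak and library on mm10. Tool versions and the meaning of the Luc tag are not given in the sources used here. Every value was a whole multiple of the lowest value in its column (100% of values in each library), so reads were recovered by dividing by it. Coordinates are as deposited.

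Peaks with at most 3 reads in all 10 tagged libraries (1103) and peaks failing edgeR's filterByExpr at a minimum count of 10 (363 more) were left out, leaving 88688. limma 3.58.1 with a trend was fitted to log2(value + 1) over all 19 libraries with a mean per group, which share an estimate of the spread. Changes are on that scale, which understates changes of low peaks, and a call is a Benjamini-Hochberg adjusted p under 0.05. edgeR 4.0.16 (TMM) and DESeq2 1.42.0 on recovered reads were alternatives, as were other scalings, pseudocounts, filters and leaving out each library. The limma fit of the 72 h against 24 h change was tested on simulated counts, and the other fits were not. Gene starts and symbols came from RefSeq tables of GRCm38.p6, which here hold start windows for 17491 of 21883 protein-coding genes. They hold no window for chromosome 18, so its 2973 peaks and the scaffolds were left out of the split by position. On other chromosomes, peaks at starts of genes without a window were counted under the other positions.

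Peaks were named by rule: the 8 in each direction with the smallest p (change of at least 1 on the log2 scale, no overlap, at least 20 reads in each library of the higher group, a gene within 100 kb), the 5 with the largest change under the same conditions, the 5 gene starts with the smallest p, the starts of genes the study names, the 5 loci with the largest net count, and up to 3 peaks per direction in each list. Members and lists were chosen with earlier results of these data known. Replicate numbers were not used to pair libraries. Results for some genes are not reported here.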

Additional observations from a re-analysis of the deposited data

Results flagged for a closer look

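At the peak 111314 bp from Bmp7, the change from 24 h to 72 h ran in opposite directions without and with TNF, and the test of the difference passed the threshold: the change was 1.54 higher without TNF on the log2 scale (adjusted p = 0.0021, limma). All 3 untreated 72 h libraries (197 to 218 normalised reads) lay above all 3 untreated 24 h libraries (119 to 123), while with TNF the 72 h libraries (124.2 to 148) lay below the 24 h ones (225 to 259). In NSPs the peak held 200.2 and at 1 week between 149 and 200.3.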

How the results depend on the processing

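All of the alternatives were planned. Over them the number of peaks that rose was 7354 to 13822 and of those that fell 9295 to 15038. Leaving out 1 library gave 7354 to 9095 and 9295 to 11047, edgeR 11330 and 11751, DESeq2 11246 and 12628, cyclic loess 11739 and 12024, total-read scaling 13822 and 10245, and the 6 libraries alone 12659 and 15038. At gene starts, 1062 rose with total-read scaling and 1204 with cyclic loess, and leaving out 1 library gave 393 to 538 that rose and 1452 to 2473 that fell. The test of the difference between the time changes without and with TNF found 8 larger with total-read scaling, 7 larger and 1 smaller with loess, 3 larger with edgeR, 70 larger and 17 smaller with DESeq2, 195 larger and 43 smaller with only the 12 libraries compared, and 1 larger and 0 to 1 smaller without 1 library. The cause of these differences was not tested. Some list medians changed sign. Leaving out 1 library gave −0.029 to 0.079 for proliferation (negative also without 72 h replicate 2, at −0.0026, and 72 h replicate 3, at −0.014), −0.0041 to 0.057 for AP-1 and −0.028 to 0.046 for neuron (negative also without 24 h replicate 1, at −0.026). Total-read scaling gave 0.019 for cilium, 0.011 for oligodendrocyte, 0.018 for microglia and 0.034 for glycogen and glucose, which loess put at 0.025. Of 127 named peaks that passed, 17 lost the call under at least 1 of 19 alternatives and 0 reversed. The 17 lie at the loci of Aurkb, Tekt1, Col1a1, Top2a, Pecam1, Serpina3n, Slc1a3, Sox10, Srf, Tmem119, Scarb1, Gata2, Mcm2, Foxp1, Egr2, Tagln and Dcn. A named peak that an alternative left out does not count as lost there. Without peaks within 1 Mb of a left-out peak 112 named results could be compared, and 137 at a minimum count of 50, against 139 with DESeq2.

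Same-numbered libraries showed little shared deviation (correlations of 0.0093, 0.0191 and −0.0418). These correlations cannot show whether same-numbered libraries came from the same culture, and the main fit did not pair them. With the replicate block 12756 peaks rose and 14759 fell. Depth limits the low peaks: a 24 h library held 1 read at the peaks in Adamts17 and Gtf2f2, where some of the largest rises started.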
